A study of Arabidopsis thaliana with 2 samples.

Results

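The 5 genes described here are grouped under pattern receptor and kinase signalling, by which Arabidopsis leaf cells sense microbial molecules and pass the signal on. The grouping was a choice, and these data show no such role for any of the 5 genes. They are FLS2 (AT5G46330), FRK1 (AT2G19190), MPK11 (AT1G01560), RLP11 (AT1G71390) and PUB54 (AT1G01680). They were taken by locus from the authors' table of transcripts lower in WRKY75 RNAi leaves, and are 5 of 931 loci in that table and of 2159 loci in both deposited tables. For each locus the transcript model with the most reads over both libraries was used. Since membership of the lower table was part of the choice, the direction of the 5 genes is a description and not a finding.

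Polyadenylated RNA was sequenced from the third and the fourth leaf of Arabidopsis thaliana plants of the Col-0 ecotype aged 28 days. There were 2 libraries, 1 of the wild type and 1 of WRKY75RNAi plants, in which RNA interference is directed at the transcription factor gene WRKY75. Both genotypes carry the Col-0 background, and no further treatment is named in the labels. The labels name neither the promoter of the RNAi transgene nor how many transgenic lines and plants went into a library. The totals behind the deposited values were 41328980 reads for wild type and 38042482 for WRKY75 RNAi. WRKY75 (AT5G13080) itself had 1699 reads and 29.2 RPKM (reads per kilobase of model length, scaled to the library total) in the wild type, and 476 reads and 8.87 RPKM in the RNAi library, which is the order that the label calls for. Of 23 marker genes of leaf mesophyll, guard cell, phloem, epidermis, root, flower and seed, 22 were in neither table, so the labelled tissue cannot be checked from files that list only transcripts that differ. The remaining marker, the epidermal wax gene KCS6 (CER6, AT1G68530), was at 62.6 RPKM in the wild type and 151.9 RPKM in the RNAi library, and its part in the values below was not tested. With 1 library per genotype there is no spread between plants, so no test of genotype was made. Intervals are exact 95% limits (Clopper-Pearson) on the ratio between libraries, and they reflect the counting of reads alone. In such bulk samples, fewer cells of a type and less RNA per cell cannot be told apart.

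Pattern-triggered immunity starts when a receptor at the plasma membrane binds a conserved microbial molecule. FLS2, a leucine-rich repeat receptor kinase, binds a peptide of bacterial flagellin and pairs with the co-receptor BAK1. Cytoplasmic kinases and a cascade of MAP kinases, of which MPK11 is a member, then carry the signal to the nucleus. There, WRKY transcription factors act through the W-box, a short DNA element with the core TTGAC, on early genes such as FRK1, itself a leucine-rich repeat receptor kinase and a standard marker of the flagellin response. FRK1 is also known as SIRK, from its induction in senescing leaves. Receptor-like proteins such as RLP11 have extracellular leucine-rich repeats and a membrane anchor but no kinase domain. PUB54 belongs to the plant U-box family of ubiquitin ligases, several of which dampen the same immune response.

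The 5 genes lie on 3 chromosomes of the TAIR10.1 assembly, from which all coordinates and sequences here are read with its own RefSeq annotation. The deposited files hold no coordinates. FLS2 is at chr5:18791575-18795908 on the plus strand, with 2 exons and 1173 codons. FRK1 is at chr2:8326049-8329944 on the minus strand, with 13 exons and 876 codons. MPK11 (chr1:202103-204440, plus strand) and PUB54 (chr1:246262-248440, minus strand) lie 41821 bases apart on chromosome 1. The MPK11 model used here has 6 exons and 369 codons, and PUB54 has 7 exons and 308 codons. RLP11 is at chr1:26906401-26908975 on the plus strand, and its single exon holds 784 codons. RLP12, a gene of the same family, starts 816 bases beyond the end of RLP11.

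WRKY75 belongs to the W-box binding family, so the 300 bases upstream of the annotated start of each gene are shown, written 5′ to 3′ along the strand of the gene. They span chr5:18791275-18791574 for FLS2, chr2:8329945-8330244 for FRK1, chr1:201803-202102 for MPK11, chr1:26906101-26906400 for RLP11 and chr1:248441-248740 for PUB54, and 0 of them overlap another annotated gene. Capitals mark every match to TTGAC or to its reverse complement GTCAA.
FLS2: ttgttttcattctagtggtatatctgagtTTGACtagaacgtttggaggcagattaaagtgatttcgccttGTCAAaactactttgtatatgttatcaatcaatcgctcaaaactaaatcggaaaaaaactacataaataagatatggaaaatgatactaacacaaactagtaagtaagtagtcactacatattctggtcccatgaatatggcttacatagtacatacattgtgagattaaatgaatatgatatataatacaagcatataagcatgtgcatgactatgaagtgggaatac
FRK1: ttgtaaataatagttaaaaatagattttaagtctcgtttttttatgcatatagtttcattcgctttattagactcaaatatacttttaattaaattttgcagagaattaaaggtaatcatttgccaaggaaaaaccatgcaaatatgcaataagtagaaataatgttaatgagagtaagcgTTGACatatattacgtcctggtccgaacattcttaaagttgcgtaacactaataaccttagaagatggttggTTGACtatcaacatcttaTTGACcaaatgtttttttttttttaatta
MPK11: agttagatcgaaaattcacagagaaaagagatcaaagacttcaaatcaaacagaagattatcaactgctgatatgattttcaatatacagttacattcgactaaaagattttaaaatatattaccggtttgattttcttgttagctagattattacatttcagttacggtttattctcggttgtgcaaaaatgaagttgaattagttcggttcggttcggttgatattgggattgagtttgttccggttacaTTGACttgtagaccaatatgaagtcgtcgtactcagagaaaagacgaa
RLP11: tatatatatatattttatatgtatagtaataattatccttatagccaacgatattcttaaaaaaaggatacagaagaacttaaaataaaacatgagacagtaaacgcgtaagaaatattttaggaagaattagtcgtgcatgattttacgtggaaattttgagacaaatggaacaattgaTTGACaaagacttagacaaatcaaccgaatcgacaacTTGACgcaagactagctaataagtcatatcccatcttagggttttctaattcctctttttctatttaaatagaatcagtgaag
PUB54: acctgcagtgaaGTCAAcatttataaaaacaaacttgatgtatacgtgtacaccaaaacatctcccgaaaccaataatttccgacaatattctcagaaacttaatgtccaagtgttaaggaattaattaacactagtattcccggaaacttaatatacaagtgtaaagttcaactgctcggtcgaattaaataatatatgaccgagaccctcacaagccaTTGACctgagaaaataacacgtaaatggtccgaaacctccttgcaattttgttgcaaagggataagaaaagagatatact

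Each of the 5 windows held at least 1 W-box core. FRK1 had the most, with 3 matches on its own strand, of which the pair nearest the gene begins 47 and 29 bases before its start. FLS2 had 2, both more than 200 bases from its start, RLP11 had 2, PUB54 had 2 and MPK11 had 1, which begins 48 bases before its start. Of all 27443 upstream windows of the same length of protein-coding nuclear genes, 50.4% held a core. The share was 62.9% among 850 loci listed as lower and 48.9% among 1148 listed as higher. The longer forms TTGACC and TTGACT, which contain the core and were likewise searched on both strands, occurred in 4 of the 5 windows and in 32.3% of all windows, and RLP11 was the gene without them. A match describes the letters in these windows and does not show that a factor binds there.

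**Figure D1:**
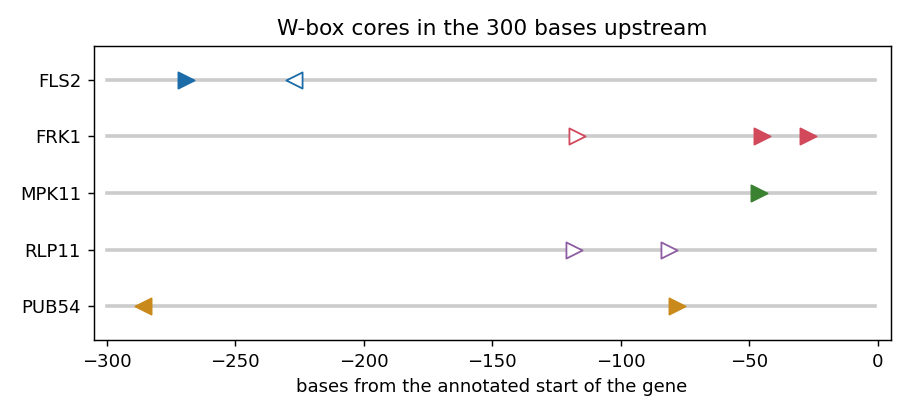
Positions of the W-box core (TTGAC on either strand) in the 300 bases upstream of the 5 genes, in bases from the annotated start. Triangles point along the strand of the core, and filled triangles are cores followed by C or T. FRK1 has 3 cores, MPK11 has 1, and RLP11 has no filled triangle.

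All 5 genes were at less than 50% of their wild-type level in WRKY75 RNAi, as the choice from the lower table requires. Of the 31475 transcript models that the authors tested, 3.17% were listed as lower and 4.32% as higher, and 1.45% were lower by more than 3-fold, as RLP11 was. The reductions were of unequal size. FLS2, FRK1, PUB54 and MPK11 kept between 34.7% and 46.3% of their wild-type level, whereas RLP11 kept 8.52%. The median log2 ratio of the 5 was -1.35, against -1.48 over the 852 lower loci with reads in both libraries. The row of the lower table closest to the authors' limit had a log2 ratio of -1.001, and transcripts beyond it are not analysed here.

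FLS2, the flagellin receptor gene, had 12608 reads in the wild type and 5369 in the RNAi library, or 80.1 and 37.0 RPKM. It was the most abundant of the 5 and supplied 68.9% of their reads in the wild type and 73.1% in the RNAi library. Its log2 ratio of -1.11 (interval -1.16 to -1.07) was the smallest reduction among the 5, and 12.8% of the 930 lower loci counted by 1 model each were reduced less. The annotated 3′ end of FLS2 overlaps that of RWA1, on the opposite strand, by 172 bases. RWA1 was not listed, and since no strand setting is given, reads from the overlap cannot be told apart.

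FRK1, the flagellin-induced receptor kinase gene, had 1806 reads (11.2 RPKM) in the wild type and 732 reads (4.94 RPKM) in the RNAi library. The log2 ratio was -1.18 (interval -1.31 to -1.06), which overlaps that of FLS2. FLS2 was left at 46.3% and FRK1 at 44.0% of wild type, a gap within counting error. The annotated end of FRK1 overlaps AT2G19180, on the opposite strand and not listed, by 175 bases.

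MPK11, a MAP kinase gene, was at 29.0 RPKM from 2458 reads in the wild type and at 10.06 RPKM from 786 reads in the RNAi library (log2 ratio -1.53, interval -1.64 to -1.41). It was the only member with a pair of transcript models in the table. The other model, AT1G01560.1, which encodes a shorter protein from 828 coding bases against 1110, had 2077 reads (22.9 RPKM) in the wild type and 566 reads (6.77 RPKM) in the RNAi library. That is a log2 ratio of -1.76 (interval -1.89 to -1.62). The intervals of both models meet. The models, with 4 exons (AT1G01560.1) and 6 exons (AT1G01560.2), overlap in position, at chr1:202136-204335 and chr1:202111-204440, so the same reads may be counted in each. MPK4, the closest relative of MPK11 in sequence (86.1% identity over 1097 aligned transcript bases), was not listed.

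PUB54, the U-box gene, had 1218 reads (15.1 RPKM) in the wild type and 441 reads (5.93 RPKM) in the RNAi library. Its log2 ratio was -1.35 (interval -1.51 to -1.19), between those of FRK1 and MPK11, and its interval overlaps both. The adjacent genes AT1G01670 and AT1G01660, which are annotated as RING/U-box proteins too, were not listed. AT1G01670 was also the most similar other transcript, at 77.0% identity over 430 bases.

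RLP11, the receptor-like protein gene, was the least abundant and the most reduced member. It had 204 reads in the wild type and 16 in the RNAi library, or 2.097 and 0.179 RPKM. The wild-type value was 11.7 times that of WRKY75 RNAi (log2 ratio -3.55, interval -4.39 to -2.82), and the interval lies apart from those of the other 4 genes. Of the 930 lower loci, 89.9% were reduced less. Its interval is 1.57 wide on the log2 scale, against 0.0925 for FLS2, because it rests on 220 reads over both libraries and FLS2 on 17977. A pseudocount of 1 RPKM brings its ratio to -1.39, between those of MPK11 (-1.44) and PUB54 (-1.21) with the same pseudocount.

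**Figure D2:**
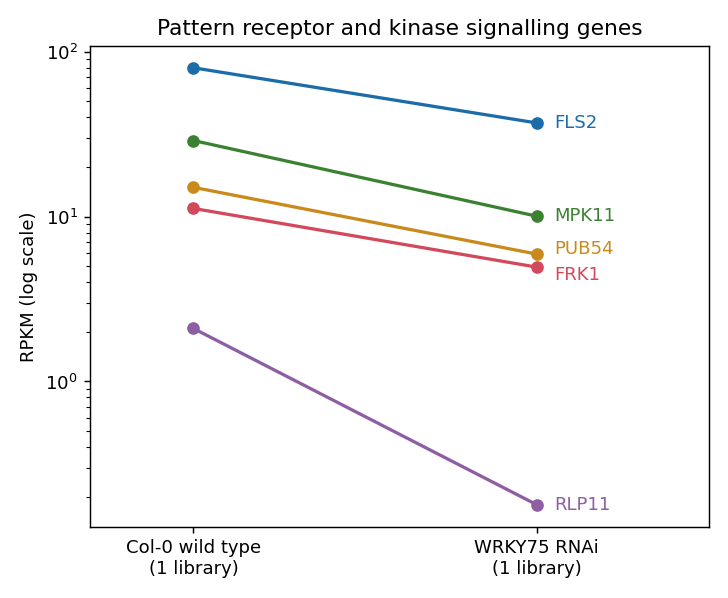
RPKM on a log scale of the 5 genes in the 1 library of each genotype, with a line joining the values of each gene. The order of the genes is the same in both libraries, and the line of RLP11, from 2.097 to 0.179 RPKM, is the steepest.

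The order of the levels per deposited length was the same in both libraries, namely FLS2, MPK11, PUB54, FRK1 and RLP11. The closest neighbours were PUB54 and FRK1, whose RPKM differed 1.34-fold in the wild type (interval 1.25 to 1.45) and 1.20-fold in WRKY75 RNAi (interval 1.06 to 1.35). From the highest to the lowest level the 5 genes spanned 38.2-fold in the wild type and 207-fold in WRKY75 RNAi, the wider span coming from RLP11. The deposited lengths include introns for several of them. Divided by the spliced length of the annotation instead, the wild-type levels were 71.8 for FLS2, 37.3 for MPK11, 24.8 for PUB54, 16.2 for FRK1 and 2.01 for RLP11 on the same scale, which leaves the order as it was.

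Among the 10 pairs of members, the intervals of the log2 ratios overlapped in 3, which were FLS2 with FRK1, FRK1 with PUB54 and PUB54 with MPK11. In the other 7 they did not overlap. These intervals hold for counting error, and whether the pairs differ between plants cannot be told from 1 library each.

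**Figure D3:**
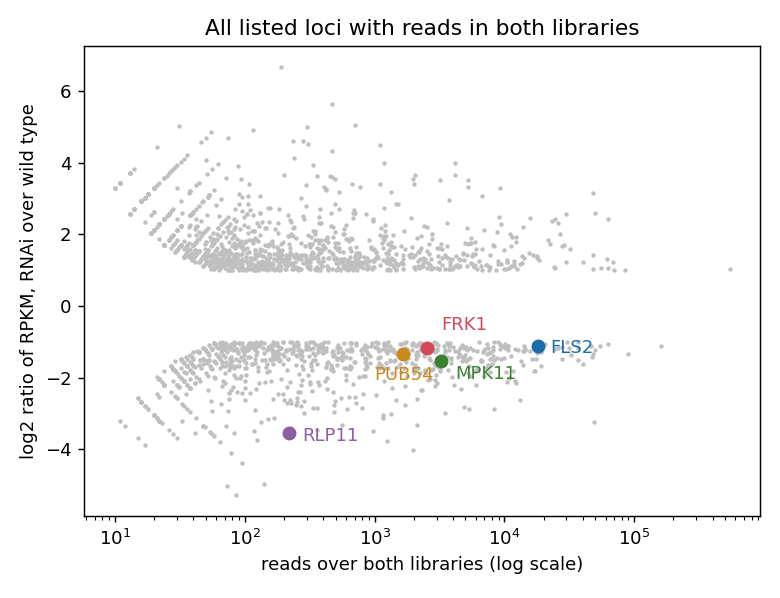
Log2 ratio of RPKM (WRKY75 RNAi over wild type) against the reads over both libraries, on a log scale, for every listed locus with reads in both libraries (grey) and the 5 genes (coloured). The empty band between -1 and 1 is the authors' limit; FLS2 sits near it at -1.11 with 17977 reads, and RLP11 lies at -3.55 with 220 reads.

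The genes of each step of the pathway were compared with the members by 8 lists, from receptors to early targets. Together the lists held 79 genes, of which 16 were listed as lower and 0 as higher, that is 20.3% lower; of all protein-coding nuclear genes 3.10% were listed as lower and 4.18% as higher. The members FLS2, MPK11, PUB54 and FRK1 are among the 16, and without them 12 of 75 were lower. The lists were drawn up with results of these data known, and both counts depend on which genes they hold. Outside them, related genes were listed as higher: MAPKKK17 (AT2G32510, 168 reads in the wild type and 795 in the RNAi library, log2 ratio 2.36), MAPKKK18 (AT1G05100, 105 and 260 reads, 1.43) and MAPKKK20 (AT3G50310, 20 and 40 reads, 1.12), which are named for MAP kinase kinase kinases, and the calcium-dependent kinase gene CPK2 (AT3G10660, 136 and 375 reads, 1.58). Others outside the lists were lower, among them LYK2 (AT3G01840, 547 and 69 reads, -2.87), of the same LysM kinase family as CERK1, and WAK1 (AT1G21250, 278 and 127 RPKM, -1.13), a wall-associated kinase that binds pectin fragments.

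From receptors to calcium-dependent kinases, 2 of the 50 genes in 5 lists were lower, or 4%, beside 3.10% of all protein-coding nuclear genes. Both are members chosen from the lower table, FLS2 and MPK11, and without them 0 of 48 were lower. Of the 18 pattern receptor genes chosen for the list, FLS2 was lower; the elongation factor receptor gene EFR, the chitin receptor genes CERK1 and LYK5 and the peptide receptor genes PEPR1 and PEPR2 were not. Of 6 co-receptor and pseudokinase genes, among them BAK1, BKK1 and SOBIR1, 0 were listed, and of 8 cytoplasmic kinase genes, among them BIK1, likewise 0. In the MAP kinase cascade MPK11 was listed and 12 other genes were not, MPK3, MPK6 and MPK4 included. The count was 0 of 5 for calcium-dependent kinases. A gene in neither table is not shown to be equal in both libraries.

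Some genes that restrain the pathway were listed. AP2C1 (AT2G30020), a phosphatase that acts on MAP kinases, was 1 of 3 phosphatase genes listed, at 107 RPKM in the wild type and 49.9 RPKM in the RNAi library (log2 ratio -1.11, interval -1.17 to -1.05). Of 8 ubiquitin ligase genes, PUB54, PUB23 and PUB24 were lower. PUB54 is a member, no restraining role of it is shown here, and without it 2 of 7 were lower. PUB23 (AT2G35930), which limits pattern-triggered immunity together with PUB22 and PUB24, was at 188 and 87.7 RPKM (log2 ratio -1.10, interval -1.15 to -1.05). PUB24 (AT3G11840) was at 27.2 and 11.4 RPKM (log2 ratio -1.25, interval -1.37 to -1.13), and PUB22 was not listed. Of 22 genes named as plant U-box proteins in the annotation, 4 were lower and 0 higher, or 18.2% lower against 3.10% of protein-coding nuclear genes. PUB54 is 1 of the 4, and without it 3 of 21 were lower. The search by name misses U-box genes annotated otherwise, such as the unlisted RING/U-box genes AT1G01660 and AT1G01670. It may miss listed ones too. The lower gene of the 4 not named above, PUB29 (AT3G18710), had 93 and 16 reads (log2 ratio -2.42, interval -3.28 to -1.64).

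Early targets, the genes switched on within the response, held most of the listed genes. Of 18, 10 were lower and 0 higher, with a median log2 ratio of -1.95. That is 55.6% lower, against 3.10% lower and 4.18% higher among all protein-coding nuclear genes. The member FRK1 is 1 of the 10, and without it 9 of 17 were lower. FRK1 had the smallest reduction of the 10. PROPEP2 (AT5G64890) and PROPEP3 (AT5G64905), precursors of the danger peptides that PEPR1 and PEPR2 perceive, rested on few reads, with 74 and 4 for PROPEP2 (log2 ratio -4.09, interval -6.00 to -2.67) and 144 and 22 for PROPEP3 (-2.59, interval -3.31 to -1.94). FOX1 (AT1G26380), an oxidoreductase of indole defence metabolism, was at 42.3 RPKM in the wild type and 5.31 RPKM in the RNAi library, or 12.6% of wild type. CYP81F2 (AT5G57220), which encodes a P450 enzyme acting on indole glucosinolates, had a log2 ratio of -2.76 (interval -2.97 to -2.55). The peroxidase gene PER4 (AT1G14540) was at 5.02 and 1.19 RPKM (-2.08), and NHL10 (AT2G35980), a flagellin marker related to NDR1, was at 44.0 and 12.4 RPKM (-1.83). The other 3 listed genes, WRKY53, WRKY33 and the wall-associated kinase gene WAK2, lay between 28.4% and 41.7% of wild type. WRKY22, WRKY29, PHI1, PAD3, PROPEP1 and PMR4 were not listed, nor were RBOHD and RBOHF, which encode oxidases that release superoxide. Of the 16 lower genes of all 8 lists, 15 held a W-box core in the 300 bases upstream, 4 of them members already shown, against 62.9% of the 850 windows of loci listed as lower and 50.4% of all windows.

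**Figure D4:**
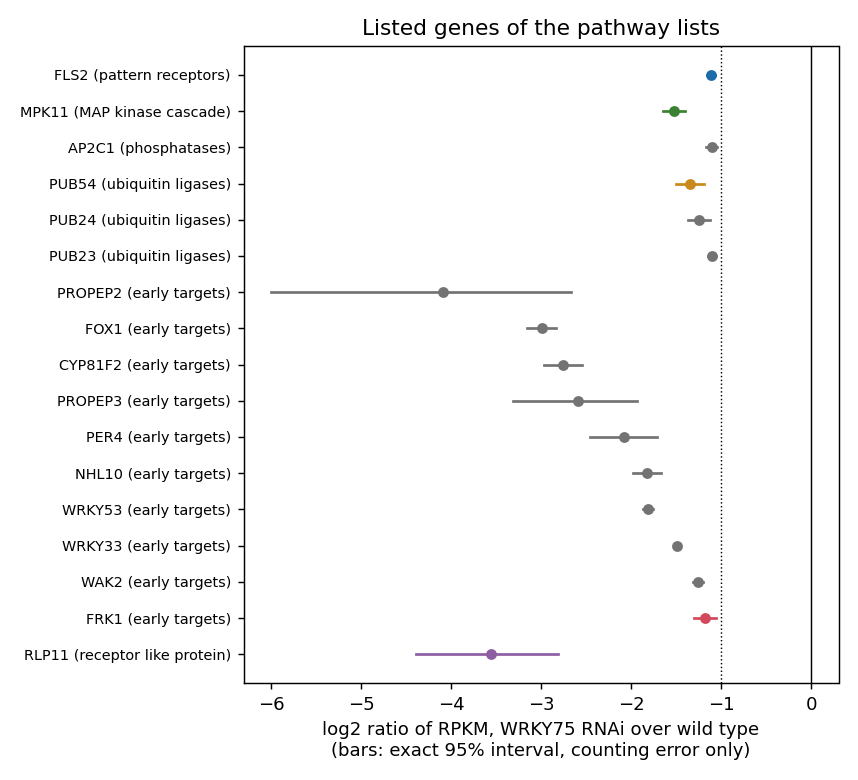
Log2 ratio of RPKM (WRKY75 RNAi over wild type) with its exact 95% interval, counting error only, for each listed gene of the pathway lists and for RLP11; the 5 genes described here are coloured, and the dotted line marks a 2-fold reduction. The interval of PROPEP2, from -6.00 to -2.67, is the widest.

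RLP11 comes from a family that was listed in both directions. Of 52 genes named RLP in the annotation, 11 were lower and 4 higher. That is 21.2% lower and 7.69% higher, against 3.10% and 4.18% of protein-coding nuclear genes. The search by symbol does not cover genes of the family annotated under another name. RLP11 is 1 of the 11 by the choice of members, and without it 10 of 51 were lower. Next to RLP11 in size were RLP7 (AT1G47890), with 1204 reads in the wild type and 136 in the RNAi library (log2 ratio -3.03, interval -3.29 to -2.77), and RLP20 (AT2G25440), with 1260 and 189 reads (-2.62, interval -2.85 to -2.40). RLP31 (AT3G05370) followed at 25.6% and RLP36 (AT3G23010) at 32.0% of wild type. The neighbour RLP12 (AT1G71400) had 930 and 375 reads, or 8.15 and 3.57 RPKM (-1.19, interval -1.37 to -1.02), and so a smaller reduction than RLP11 despite 78.8% identity over 2151 transcript bases. On the higher side stood RLP6 (AT1G45616), with 114 and 463 reads (log2 ratio 2.14, interval 1.84 to 2.45), while RLP53 (1.13), RLP40 (1.04) and RLP27 (1.04) were close to the authors' limit. RLP23 and RLP30, which have known microbial ligands or roles in perception, were not listed.

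Around FRK1, a chosen list of related leucine-rich repeat kinases with a malectin-like domain was examined, and other relatives were not covered. Of its 16 genes, 3 were lower and 0 higher, or 18.8% lower against 3.10% of protein-coding nuclear genes. FRK1 is 1 of the 3, and without it 2 of 15 were lower. AT4G29990, the closest to FRK1 in sequence (74.0% identity over 2647 aligned transcript bases), is outside these 16 and was listed as neither lower nor higher. AT1G51860 was at 12.1 RPKM in the wild type and 3.50 RPKM in the RNAi library (log2 ratio -1.79, interval -1.93 to -1.65), and AT1G51890 was at 36.3 and 11.0 RPKM (-1.73, interval -1.81 to -1.64). Both were reduced more than FRK1, and their intervals lie apart from that of FRK1. The adjacent relatives of FRK1 in the genome, AT2G19210 and AT2G19230, were not listed. Of 18 MAP kinase genes by name, MPK11 alone was listed.

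**Figure D5:**
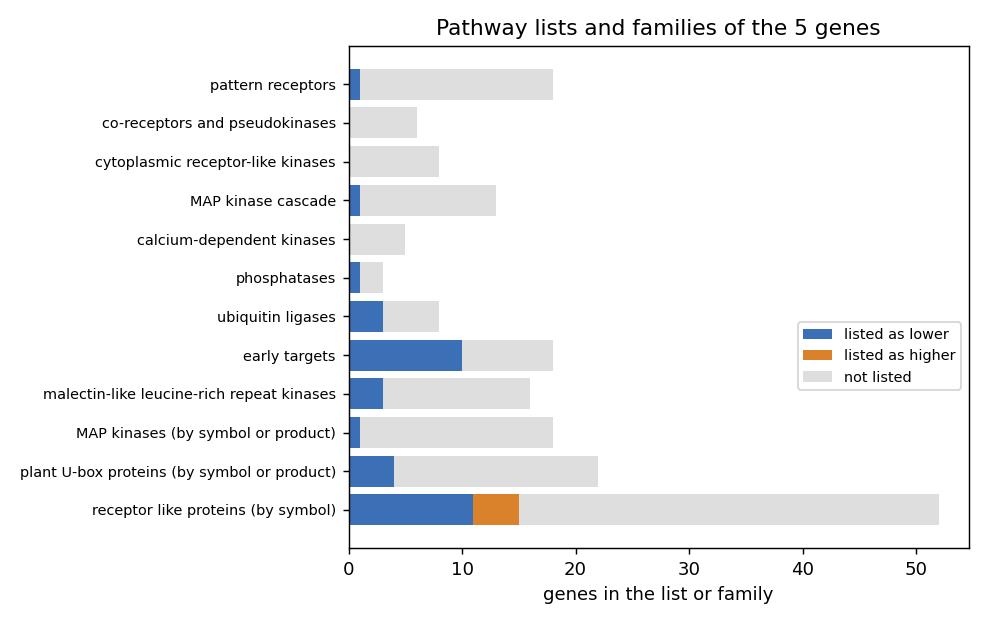
Number of genes listed as lower, listed as higher or not listed in WRKY75 RNAi for the 8 pathway lists and 4 families of the 5 genes. Lower genes make up 10 of 18 early targets and 11 of 52 receptor-like proteins, and of the groups plotted the receptor-like proteins alone have higher genes, 4 of 52.

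Of the 30 protein-coding genes that flank the 5 members, 3 on each side, RLP12 was lower and the other 29 were not listed. Of all protein-coding nuclear genes, 3.10% were listed as lower. Transcripts of the 5 members shared no alignment of at least 50 bases at 97% identity or more with any other gene.

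Only listed loci with reads in both libraries were searched for the pairs of RPKM values nearest to each member, on the log2 scale. The loci found over the 2 libraries were of mixed function. The nearest to FRK1 was ACD6 (AT4G14400), an ankyrin protein of salicylic acid defence, at 11.4 and 4.93 RPKM, followed by the cysteine-rich receptor kinase gene CRK39 (AT4G04540) at 10.5 and 5.01 RPKM. PUB54 lay nearest to the ethylene response factor gene ERF6 (AT4G17490), at 15.1 and 5.97 RPKM, and to AT1G17610, a TIR-NBS resistance protein gene. MPK11 lay nearest to AT1G21525 and to the abscisic acid receptor gene PYL6 (AT2G40330), at 30.4 and 10.2 RPKM. FLS2 lay nearest to AT4G28085 and AT1G22190, and RLP11 to AT2G23270 and AT1G47395, the last on 38 and 3 reads. Likeness over only 2 libraries says that levels and ratio were close, and nothing more.

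For the lower genes, the authors' deposited table of ontology terms names the members in 40 of 93 terms. In the authors' deposited table FLS2 appears in 34 terms, MPK11 in 17, FRK1 in 12, RLP11 in 11 and PUB54 in 3. Defense response, with 69 of 857 list genes against 637 of 27594 background genes, holds FLS2, FRK1 and RLP11 in the authors' deposited table. Immune response, response to chitin and innate immune response hold 0 of the members there. In that authors' deposited table, signaling holds FLS2, MPK11 and RLP11 (67 against 1023 genes, adjusted p 9.19e-07), and kinase activity holds FLS2, FRK1 and MPK11 (65 against 1188, adjusted p 0.000301). PUB54 is named there only under terms of protein modification. These terms were computed on the same lower genes and are no independent evidence for the members.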

How the data were processed

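Messenger RNA was sequenced from 1 leaf library per genotype. Reads were aligned with Bowtie to TAIR10, per the submitters' processing notes; version, counter, strand setting and filters are not stated in the labels. Per the file headers, the authors deposited read counts per transcript model, RPKM, the log2 ratio of RPKM, a p-value and its false discovery rate, for listed transcripts only. The deposited p-value was used solely to recover, with the false discovery rate, the 31475 models tested (545 rows). Library totals are medians of counts over the product of deposited RPKM and length. The 1 row without a locus was left out.

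Ratios were recomputed from RPKM without a pseudocount. Intervals were checked on simulated Poisson counts, which hold no spread between plants, so the check covers counting error alone. Calculations used Python 3.11.15 with scipy 1.17.1, and BLAST 2.17.0 for similarity (at least 50 bases at 97% identity, same strand). Upstream windows and gene models come from TAIR10.1, and sequence was read only with that assembly's own coordinates.

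The members and lists were chosen with earlier results of these data known. The genes named are the members, WRKY75, up to 6 listed genes per list or family (all if fewer) by size of ratio, and the 2 nearest loci per member. RLP12, RLP27, RLP40, RLP53, WRKY33, WRKY53, WAK1, WAK2, KCS6, LYK2, CPK2, MAPKKK17, MAPKKK18, MAPKKK20 and the leucine-rich repeat kinases of the closing section were named after their values were seen. The settings tried are in the closing section.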

Additional observations from a re-analysis of the deposited data

How the results depend on the processing

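No paired analysis was possible because each genotype has 1 library, and for the same reason no library could be left out. Over 45 combinations of member and setting (9 per member), 31 left the log2 ratio within its counting interval, 14 moved it outside and 0 changed its sign. Many of the 31 could not have moved. The deposited log2 ratio is the same value, halving the reads keeps the ratio apart from rounding, and the settings on transcript models change MPK11 alone. A pseudocount cannot change a sign. The count of 31 is therefore no measure of how stable the ratios are. A pseudocount of 5 RPKM gave -1.02 for FLS2, -0.71 for FRK1, -1.17 for MPK11, -0.45 for RLP11 and -0.88 for PUB54, so that FRK1, RLP11 and PUB54 were then within 2-fold. With a pseudocount of 1 RPKM FRK1 was at -1.04 and RLP11 at -1.39. Reads with no scaling gave -1.23 for FLS2 and -1.64 for MPK11, and reads scaled to the listed rows gave -1.30 for FLS2, -1.37 for FRK1, -1.71 for MPK11 and -1.53 for PUB54. The MPK11 model with fewest reads gave -1.76. At 3-fold and at 4-fold 1 of the 5 members remained, RLP11. The 16 lower genes of the 8 lists became 8 where the size of the log2 ratio had to reach 1.5 and 5 where it had to reach 2. The longer W-box forms lowered the share of windows from 100% to 80% for the members and from 50.4% to 32.3% for all genes. With reads halved, the interval of RLP11 widened to -4.80 to -2.52.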

Other observations

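A search of the annotation's product names for leucine-rich repeat kinases, made after the values were seen, found 181 genes, of which 13 (7.18%) were listed as lower and 2 (1.1%) as higher, against 3.10% and 4.18% of all protein-coding nuclear genes. The member FLS2 is 1 of the 13, and without it 12 of 180 were lower. The search misses kinases of this family with other product names, such as FRK1, EFR, BAK1, PEPR1 and AT1G35710, the last at 248 RPKM in the wild type and 114 in the RNAi library (log2 ratio -1.12). Besides FLS2, AT1G51860 and AT1G51890, the 3 lower genes with the highest RPKM in the wild type were AT3G14840 (34.7 RPKM in the wild type and 15.3 in the RNAi library, log2 ratio -1.19), AT1G74360 (31.0 and 13.3 RPKM, -1.22) and AT3G47570 (23.2 and 10.9 RPKM, -1.09). PSY1R (AT1G72300), the receptor gene of a sulfated growth peptide, was at 7.76 and 3.79 RPKM (-1.03). The higher genes were AT3G03770 (4.44 and 9.58 RPKM, 1.11) and AT2G45340 (0.935 and 2.21 RPKM, 1.24).

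Windows with at least 3 W-box cores made up 13.3% of the loci listed as lower, 3.31% of those listed as higher and 5.07% of all protein-coding nuclear genes. Among the 5 members FRK1 was the only such gene.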
